A study of Mus musculus with 8 samples.

Results

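Axon guidance ligands and receptors were described in mouse pancreatic endocrine cells that had lost Neurod1. The genes were chosen by symbol: netrins, repulsive guidance molecules, semaphorins of classes 3 to 7, ephrins and Slits as ligands, and Dcc, Neo1, Unc5 proteins, neuropilins, plexins, Eph receptors and Robos as receptors. Of the 23284 genes in the count files, 72 carried such a symbol. The 62 that reached at least 1 CPM (counts scaled to a common library size) in 4 or more of the 8 libraries are described here, 34 ligands and 28 receptors. Every gene among these 62 reached that level in some Het library. Sema6c did so only in Het replicate 7 (2.35 CPM) and met the rule through the KO libraries, at 1.97 to 5.37 CPM. It is kept in the counts and medians below. The other 10 stayed below it: Ntn5, Sema3g, Plxnb3, Efna3, Epha5, Epha6, Epha8, Epha10, Ephb1 and Robo3. Just inside the limit stood Dcc, with 0.290 to 2.53 CPM over the libraries, and Epha2, with 0.478 to 5.37 CPM. Just outside it stood Sema3g, with 0.435 to 2.91 CPM, and Plxnb3, with 0 to 3.35 CPM.

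The cells came from embryonic day 17 (E17) pancreas and were sorted as Tomato-positive. All 8 libraries carried Neurog3Cre+ and RosaTomato+, in a strain spelled C56BL/J in the labels. Neurog3 drives the Cre recombinase in endocrine precursors, so Tomato marks them and their progeny, and floxed alleles are deleted in the same lineage. The KO libraries (replicates 8, 9, 17 and 24) had both Neurod1 alleles floxed. The Het libraries (replicates 6, 7, 13 and 19) had 1 floxed and 1 wild-type allele, so the controls had also lost 1 allele. The comparison therefore shows the loss of both alleles against the loss of 1. It is not stated that replicates are separate animals, and p-values measure the spread between these libraries.

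Guidance molecules steer growth cones and migrating cells. Netrins act through Dcc, Neo1 and Unc5 proteins, repulsive guidance molecules bind Neo1, class 3 semaphorins bind neuropilins that signal with plexins, other semaphorins bind plexins directly, ephrins and Eph receptors signal between touching cells, and Slits bind Robos. In the pancreas several of these families are known for roles in islet shape, in contacts between islet cells, and in the vessels and nerves that grow into islets. NEUROD1 regulates transcription in endocrine cells and neurons, and proteins of its basic helix-loop-helix class bind E-boxes, the motif CANNTG.

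Library totals ran from 10.35 to 16.08 M counts, so 1 CPM stood for 9.87 to 16.2 counts. Neurod1 had 133 to 210.3 CPM in the Het libraries and 2.54 to 22.1 CPM in the KO libraries (log2 fold change −3.40, adjusted p = 0.0165, SE 0.52, edgeR quasi-likelihood test). That call was lost without KO replicate 9 or any 1 Het library (log2 fold change −3.47 to −3.22, adjusted p at most 0.0732), with the Y-linked covariate (−3.18, adjusted p = 0.0729) and with the endothelial covariate (−2.88, adjusted p = 0.525). The 7 endocrine markers, Chga and Pax6 among them, summed to 3047 to 7706 CPM, lowest in KO replicate 8. The 6 beta-cell markers summed to 26467 to 48455 CPM in Het and to 6250 to 13232 CPM in KO. Most of that sum was Ins1, Ins2 and Iapp. These and Mafa had negative log2 fold changes, while Nkx6-1 (0.24) and Slc2a2 (0.10) had positive ones. The fall was not limited to beta-cell markers: the 6 alpha-cell markers summed to 34742 to 35697 CPM in Het and to 14823 to 25270 CPM in KO. In bulk samples such as these, fewer cells of a type and less RNA per cell cannot be told apart.

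KO replicate 8 stood apart from the other libraries in its mesenchyme markers. All 11 mesenchyme markers, such as Col3a1 and Pdgfra, were highest there, at 9.78 to 27.8 times the median of the other 7 libraries. Their summed level was 9941 CPM in KO replicate 8, 385 to 548 CPM in the other KO libraries and 268 to 1257 CPM in Het, and no marker on the list was at 0 in all libraries. The 5 leukocyte markers summed to 387 CPM in KO replicate 8 and 205 CPM in KO replicate 9, against 12.1 to 53.4 CPM elsewhere. The 8 endothelial markers summed to 7.94 to 10.9 CPM in Het and to 23.4, 24.4, 7.61 and 16.6 CPM in KO replicates 8, 9, 17 and 24. Of these markers, only Cldn5 was called higher in KO (log2 fold change 3.88, adjusted p = 0.0311), at 3.74 CPM or less in every library. Pecam1 (0.94), Cdh5 (0.60) and Ecscr (0.88) had positive log2 fold changes and Esam a negative one (−0.99), none of them called. Tek, Tie1 and Emcn were too low to be tested. Tie1, Emcn and Ecscr had 0 counts in Het replicate 6. The part of these other cell types in the results was not tested. For this reason the changes are given with and without KO replicate 8.

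The 62 guidance genes were higher in KO more often than lower, and 1 of them passed the test. A total of 53 had a positive log2 fold change with all libraries and 44 without KO replicate 8, and 11 changed sign between those fits. Of all 14116 genes tested, 7535 had a positive log2 fold change with all libraries. The median log2 fold change of the 62 guidance genes was 0.48 (0.30 without KO replicate 8), beside 0.03 (−0.00) for all genes tested. Rgma was called higher, 1 of 62, where 0.34% of the 14116 genes tested were called higher. No guidance gene was called lower, where 0.68% of all genes were. At an unadjusted p under 0.05, 15 of the 62 were higher, beside 6.35% of all genes, and 1, Slit1, was lower, beside 5.8%. The 4 KO libraries lay above the 4 Het libraries without overlap for 7 genes (Rgma, Nrp1, Plxna1, Plxna4, Efnb1, Ephb2 and Ephb4), beside 3.52% of all genes, and below them for Slit1, beside 4.51%.

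Without KO replicate 8, a choice of library made after seeing the data, the fit called Rgma higher, beside 0.678% of the 14307 genes then tested, and Sema6d lower, beside 1.31%. In that fit 14 of the 62 were higher at an unadjusted p under 0.05, beside 6.03% of all genes, and Slit1, Sema4f and Sema6d were lower, beside 8.21%. The groups then did not overlap for 12 higher genes, adding Plxnb1, Robo1, Sema4a, Sema4b and Sema4g, beside 6.89% of all genes. They did not overlap for 2 lower ones, Slit1 and Sema6d, beside 7.56%. DESeq2, fitted on the same counts of all 8 libraries, called 8 guidance genes higher (Rgma, Ephb2, Ephb4, Nrp1, Nrp2, Plxna1, Sema3f and Efnb1), beside 1.61% of all genes, and 0 lower, beside 2.08%.

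**Figure D1:**
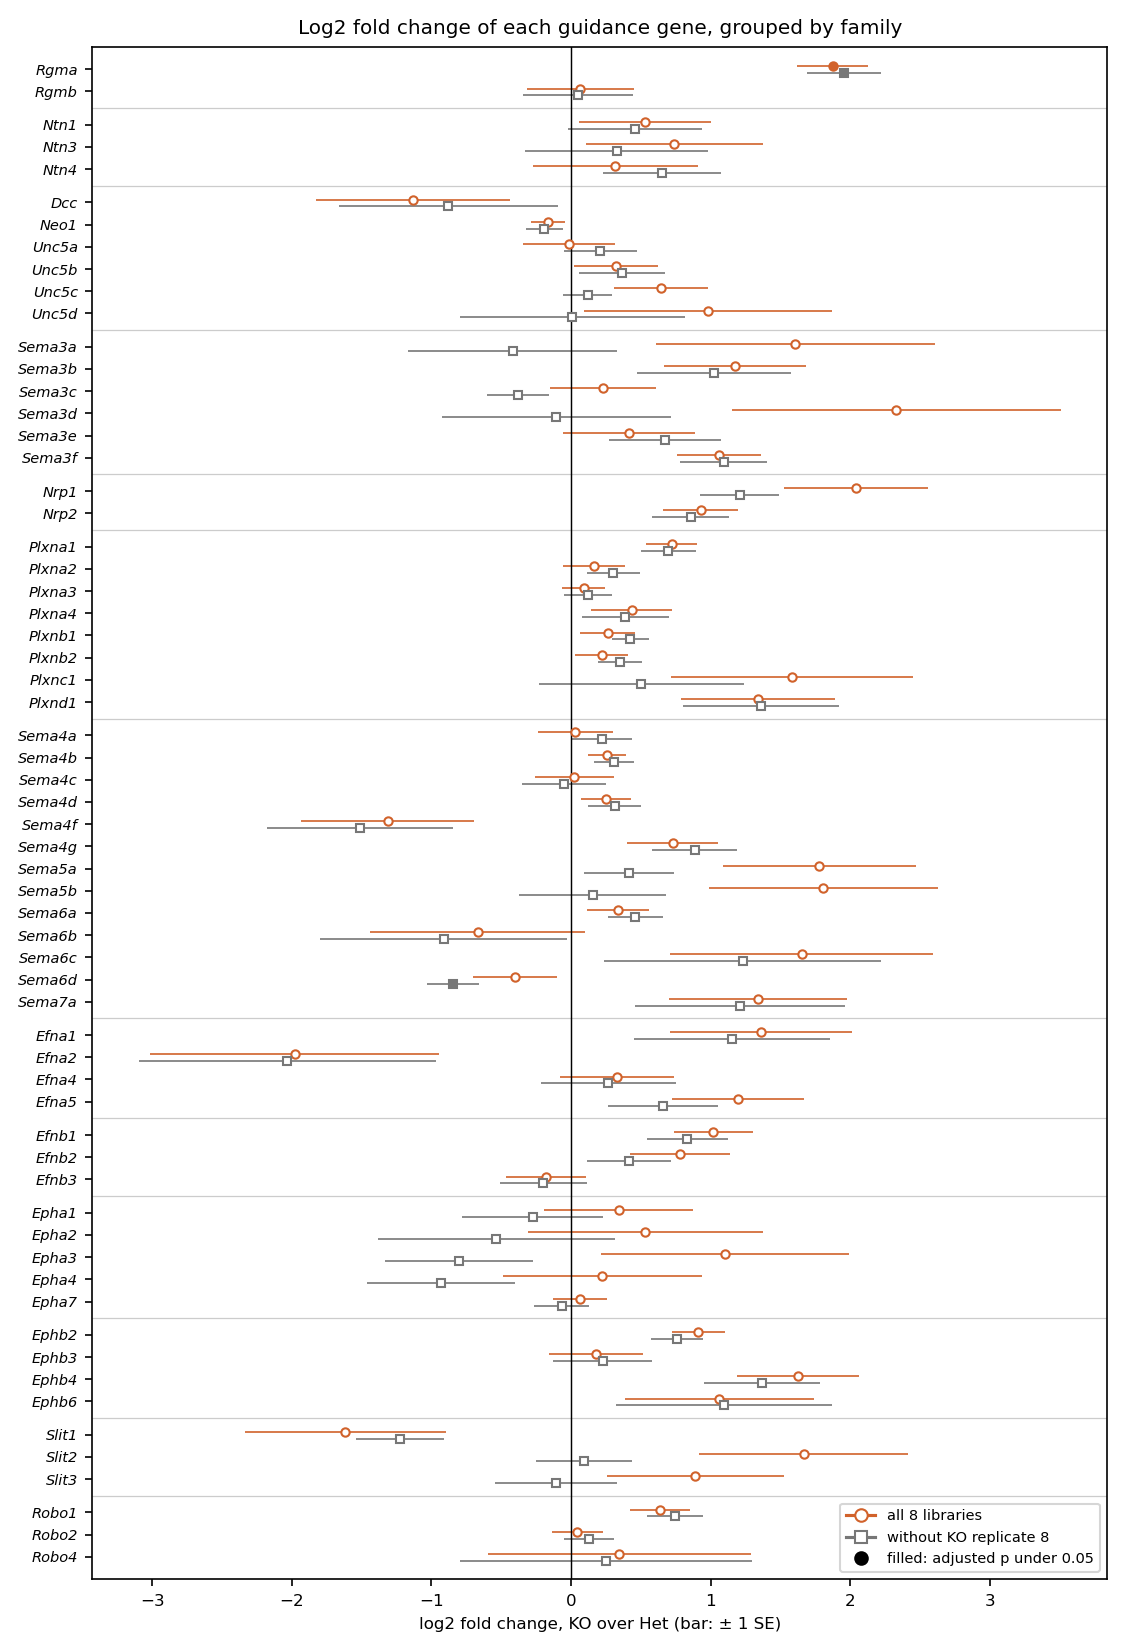
Log2 fold change, KO over Het, of the 62 guidance genes (horizontal axis; bars are ± 1 SE), grouped by family, with all 8 libraries (circles) and without KO replicate 8 (squares); filled symbols have an adjusted p under 0.05. Rgma is filled in both fits and Sema6d only without KO replicate 8, while Sema3a, Sema3d, Epha3 and Slit2 move toward or past 0 when that library is left out.

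Promoter sequences are shown first for genes whose KO and Het libraries did not overlap, a set chosen from these same data. RefSeq windows of GRCm38.p6, the 250 bases before the transcription start, were at hand for 51 of the 62 genes. They are printed 5′ to 3′ on the gene's own strand for the 4 such genes in the table that also had an unadjusted p under 0.05, with E-boxes (CANNTG, a palindrome in its fixed letters that is the same on both strands) in capitals. Rgma, Plxna1 and Slit1 had no window and are named only. None of the 4 printed genes was called by edgeR. The windows lie at chrX:99135811-99136060 on the plus strand (Efnb1), chr4:136836013-136836262 on the minus strand (Ephb2), chr5:137349859-137350108 on the plus strand (Ephb4) and chr8:128358823-128359072 on the plus strand (Nrp1).
Efnb1: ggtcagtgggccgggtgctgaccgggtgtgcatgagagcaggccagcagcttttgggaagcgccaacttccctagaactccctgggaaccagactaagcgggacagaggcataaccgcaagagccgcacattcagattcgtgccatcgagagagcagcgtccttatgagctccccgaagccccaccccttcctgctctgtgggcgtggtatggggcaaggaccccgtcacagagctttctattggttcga
Ephb2: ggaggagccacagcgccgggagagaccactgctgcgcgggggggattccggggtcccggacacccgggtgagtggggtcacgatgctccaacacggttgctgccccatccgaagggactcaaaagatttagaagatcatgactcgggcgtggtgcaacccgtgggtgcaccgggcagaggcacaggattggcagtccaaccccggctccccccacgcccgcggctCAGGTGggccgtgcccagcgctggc
Ephb4: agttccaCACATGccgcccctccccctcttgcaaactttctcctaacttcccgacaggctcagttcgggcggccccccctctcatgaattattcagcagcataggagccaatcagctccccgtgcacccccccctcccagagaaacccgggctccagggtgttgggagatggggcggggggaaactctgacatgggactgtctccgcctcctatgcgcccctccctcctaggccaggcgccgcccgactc
Nrp1: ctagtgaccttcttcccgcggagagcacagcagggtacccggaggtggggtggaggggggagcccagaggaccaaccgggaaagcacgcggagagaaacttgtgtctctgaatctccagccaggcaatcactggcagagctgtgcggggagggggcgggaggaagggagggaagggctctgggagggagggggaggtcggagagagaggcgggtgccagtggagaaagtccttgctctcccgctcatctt
The Ephb2 window held 1 E-box, which begins 25 bases before the start, and the Ephb4 window held 1, which begins 243 bases before it. The Efnb1 and Nrp1 windows held none, which says only that these letters were not in this stretch. Of the 68 windows of described guidance genes, 42.6% held an E-box, beside 66.2% of all 32851 windows of the same length. The form CAGATG was in 4.41% of the guidance windows and in 14.4% of all windows, and CAGCTG in 10.3% and 13% (both are also counted under CANNTG). A match is a description of letters and was not tested as a binding site.

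Repulsive guidance molecules and netrins were the first group of ligands, and here Rgma rose. Rgma encodes a membrane-anchored ligand of Neo1 and a co-receptor for bone morphogenetic proteins. Its level was 5.55, 5.19, 5.56 and 5.06 CPM in Het replicates 6, 7, 13 and 19, and 15.7, 22.3, 21.6 and 18.7 CPM in KO replicates 8, 9, 17 and 24. The Het libraries were almost level and every KO library was above all of them, KO replicate 8 being the lowest of the 4. The means were 5.34 ± 0.254 CPM in Het and 19.6 ± 3.04 CPM in KO (SD, n = 4 each), a log2 fold change of 1.87 (adjusted p = 0.00974, SE 0.25). Without KO replicate 8 it was 1.95 (adjusted p = 0.0029, SE 0.27), and with a covariate for mesenchyme markers 1.91 (adjusted p = 0.0015). That covariate was far highest in KO replicate 8, so these fits are not separate. The call was lost without Het replicate 13 (1.89, adjusted p = 0.0501) and with a covariate for endothelial markers (1.98, adjusted p = 0.278), a fit that called 0 genes higher in the whole table. In the authors' deposited table Rgma had a log2 fold change of 1.87 and an adjusted p of 0.00409.

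A730056A06Rik, which overlaps Rgma in the annotation, had at most 5 counts in any library. LOC115486533 also overlaps Rgma there, and its counts were not examined. The neighbouring gene Chd2 had 128, 128, 174 and 185 CPM in Het and 207, 200, 201 and 229 CPM in KO. Its KO libraries also lay above all Het libraries, with a log2 fold change of 0.45 (adjusted p = 0.264). Rgmb, the other repulsive guidance molecule, did not follow Rgma: it had 30.6, 13.6, 13.9 and 9.93 CPM in Het and 18.1, 11.9, 14.8 and 26.5 CPM in KO, groups that overlapped (log2 fold change 0.07, adjusted p = 0.966). Per kilobase of coding sequence, the scale used here to compare levels between genes, Rgmb was the higher of both in Het, at 13.01 ± 7.04 CPM per kb against 3.92 ± 0.187 CPM per kb for Rgma. In KO they stood at 13.6 ± 4.81 and 14.4 ± 2.23 CPM per kb (SD, n = 4 each).

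Netrins did not pass the test. Ntn1, the secreted netrin best known as an axon attractant, had the highest level of the 3 per coding length. It had 19.3, 4.82, 15.4 and 8.61 CPM in Het and 19.4, 29.0, 10.6 and 10.4 CPM in KO, with overlapping groups (log2 fold change 0.53, adjusted p = 0.696). Ntn3 and Ntn4, 2 further secreted netrins, had log2 fold changes of 0.74 and 0.32.

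**Figure D2:**
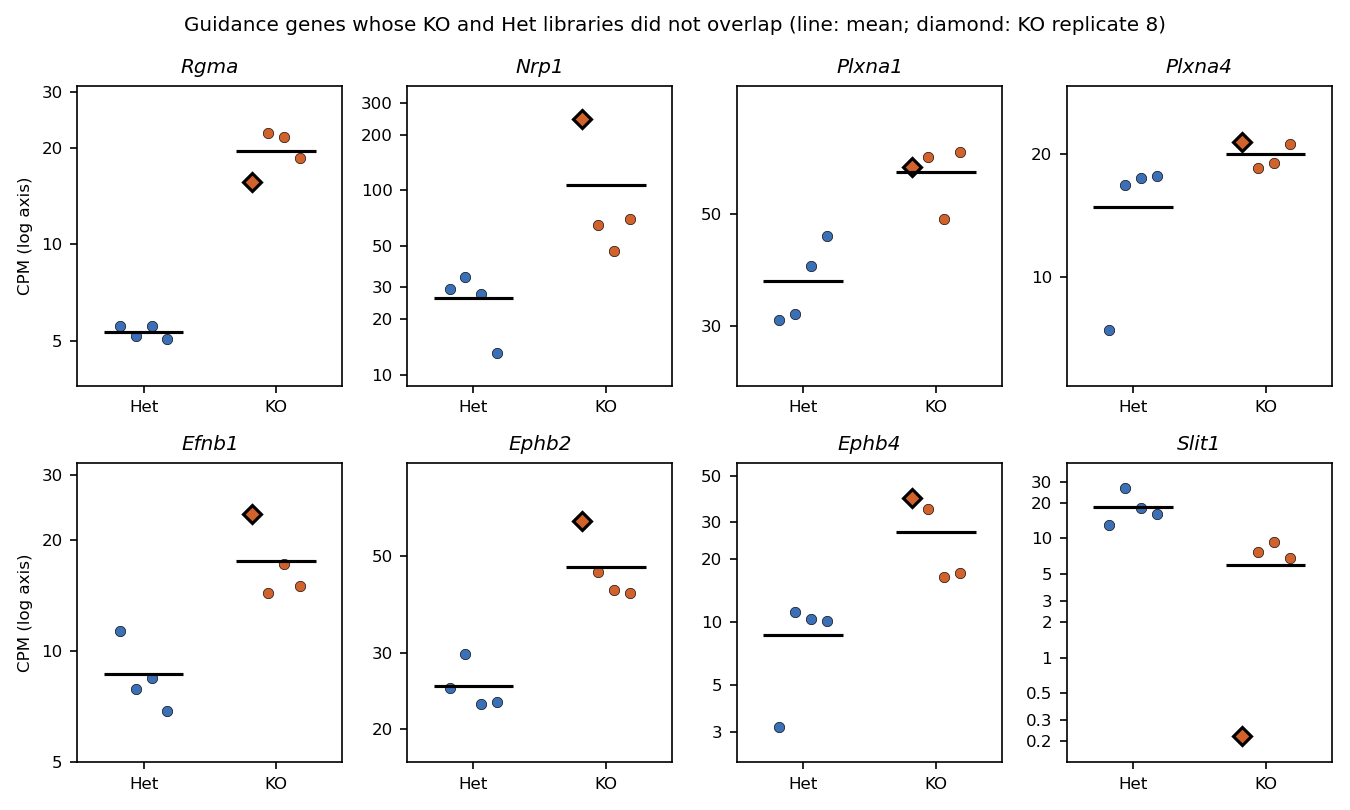
CPM (log axis) of each library for the 8 guidance genes whose Het (blue) and KO (orange) libraries did not overlap; lines are group means of 4 libraries and the diamond is KO replicate 8. Rgma lies at 5.06 to 5.56 CPM in Het and 15.7 to 22.3 CPM in KO, and Slit1 is the gene with the KO libraries below the Het libraries.

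The receptors for these ligands were present at very unequal levels and none passed the test. Neo1, the neogenin receptor that binds both repulsive guidance molecules and netrins, was the most abundant guidance receptor per coding length, at 81.2 ± 8.70 CPM per kb in Het and 72.3 ± 4.16 CPM per kb in KO (SD, n = 4 each). Its level was 408, 313, 368 and 366 CPM in Het and 334, 297, 325 and 339 CPM in KO. These groups overlapped and lay close together (log2 fold change −0.17, adjusted p = 0.629, SE 0.12). Dcc, the classical netrin receptor of commissural axons, was far lower, at 0.367 ± 0.162 CPM per kb in Het, and had a log2 fold change of −1.13 (adjusted p = 0.545). The Unc5 genes encode the repulsive netrin receptors. In Het, Unc5c stood at 25.8 ± 2.53, Unc5a at 12.9 ± 3.24, Unc5b at 7.66 ± 2.36 and Unc5d at 1.52 ± 1.91 CPM per kb. Unc5c had 217 CPM in KO replicate 8 and 62.4 to 99.8 CPM in the other 7 libraries, and its log2 fold change went from 0.64 to 0.12 without that library. Unc5a (−0.01), Unc5b (0.32) and Unc5d (0.98, or 0.01 without KO replicate 8) had adjusted p-values from 0.701 to 0.992.

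Class 3 semaphorins, the secreted ligands of neuropilins, were all positive with all libraries (6 of 6, median log2 fold change 1.12). That median was 0.28 without KO replicate 8, and none of the 6 was called. Sema3f, which repels axons and vessels through Nrp2, had 17.5, 8.40, 9.70 and 9.42 CPM in Het and 21.2, 28.5, 17.3 and 26.8 CPM in KO. Only Het replicate 6 reached into the range of the KO libraries. The log2 fold change was 1.06 (adjusted p = 0.164, SE 0.30), 1.09 without KO replicate 8 (adjusted p = 0.110), and DESeq2 gave an adjusted p of 0.0352. Sema3b had 1.39, 2.28, 3.0 and 5.47 CPM in Het and 8.63, 8.68, 5.80 and 4.13 CPM in KO, overlapping at Het replicate 19 (log2 fold change 1.17, adjusted p = 0.389).

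Sema3c, a semaphorin known from vessel and neural crest development, was the class 3 member with the highest level per coding length. It had 30.7, 36.3, 26.4 and 23.8 CPM in Het and 68.7, 26.3, 19.4 and 22.6 CPM in KO. KO replicate 8 stood alone, and the log2 fold change of 0.23 became −0.38 without it. Sema3a and Sema3d were alike in this: they had 31.2 and 71.4 CPM in KO replicate 8, against 0.718 to 5.0 and 0.810 to 7.88 CPM in the other 7 libraries. Their log2 fold changes of 1.61 and 2.33 became −0.42 and −0.11 without that library. Sema3e, a ligand of Plxnd1, had a log2 fold change of 0.41.

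Both neuropilins, the co-receptors of class 3 semaphorins and of vascular endothelial growth factor, were higher in KO at an unadjusted p under 0.05. Over all genes tested that share was 6.35%, and neither neuropilin was called by edgeR after adjustment. Nrp1 had 29.3, 34.0, 27.5 and 13.1 CPM in Het and 245, 64.9, 47.0 and 70.0 CPM in KO. Every KO library was above every Het library, and KO replicate 8 was far above the rest. With all libraries the log2 fold change was 2.04 (adjusted p = 0.115, SE 0.51). Without KO replicate 8 it was 1.21 (adjusted p = 0.0520, SE 0.28). The DESeq2 adjusted p was 0.0281. Nrp2 had 31.9, 47.2, 24.8 and 18.9 CPM in Het and 65.1, 64.5, 46.6 and 57.7 CPM in KO. Here Het replicate 7 and KO replicate 17 overlapped slightly, and the log2 fold change was 0.93 (adjusted p = 0.173, SE 0.27, or 0.0360 by DESeq2), and 0.86 without KO replicate 8. Nrp1 is also made by endothelial and mesenchymal cells. The summed endothelial markers were above all Het libraries in 3 of the 4 KO libraries. With the endothelial covariate the log2 fold change of Nrp1 was 1.04 (adjusted p = 0.9996). That fit called 0 genes higher in the whole table, and Neurod1 lost its call in it (adjusted p = 0.525). With the mesenchyme covariate the log2 fold change of Nrp1 was 1.42 (adjusted p = 0.000875). That covariate was far highest in KO replicate 8, so this fit is not separate from leaving that library out. The part of these cells in the difference was not tested.

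Plexins, the signalling receptors of semaphorins, were positive in 8 of 8 cases (median log2 fold change 0.35, or 0.41 without KO replicate 8), and none was called. Plxna1, which pairs with neuropilins, had 30.8, 31.7, 39.4 and 45.2 CPM in Het and 62.0, 64.9, 48.7 and 66.3 CPM in KO. The groups did not overlap, and KO replicate 8 lay within the range of the other KO libraries. The means were 36.8 ± 6.82 CPM and 60.5 ± 8.04 CPM (SD, n = 4 each), a log2 fold change of 0.72 (adjusted p = 0.119, SE 0.18), 0.70 without KO replicate 8 (adjusted p = 0.113), and the DESeq2 adjusted p was 0.0219. Plxna4, also a partner of neuropilins, had 7.41, 16.8, 17.5 and 17.7 CPM in Het and 21.5, 18.5, 19.1 and 21.2 CPM in KO. It did not overlap between groups, but its highest Het library lay less than 1 CPM below the lowest KO library, and its log2 fold change was 0.43 (adjusted p = 0.583).

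Plxnb2, a receptor of class 4 semaphorins, was the plexin with the highest level per coding length, at 36.5 ± 5.90 CPM per kb in Het. It had 181, 170.1, 212 and 242 CPM in Het and 162, 232, 243 and 299.9 CPM in KO, which overlapped (log2 fold change 0.22, adjusted p = 0.690). Plxnb1, the receptor of Sema4d, had 132 to 149 CPM in Het and 178 to 219 CPM in KO replicates 9, 17 and 24, but 106 CPM in KO replicate 8. Its log2 fold change was 0.26, and 0.42 (adjusted p = 0.140, SE 0.13) without that library. Plxnd1, best known from endothelial cells, had 7.56, 3.58, 4.85 and 3.95 CPM in Het and 11.6, 27.8, 5.20 and 5.92 CPM in KO. KO replicates 8 and 9 were the highest for Plxnd1 (log2 fold change 1.34, adjusted p = 0.361). They were also the pair with the highest endothelial and leukocyte marker sums, and KO replicate 9 had the highest acinar sum. The part of these cells in the difference was not tested. Plxna2 and Plxna3 differed little, with log2 fold changes of 0.16 and 0.09. Plxnc1, the receptor of Sema7a, had 35.8 CPM in KO replicate 8 and at most 8.92 CPM elsewhere.

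**Figure D3:**
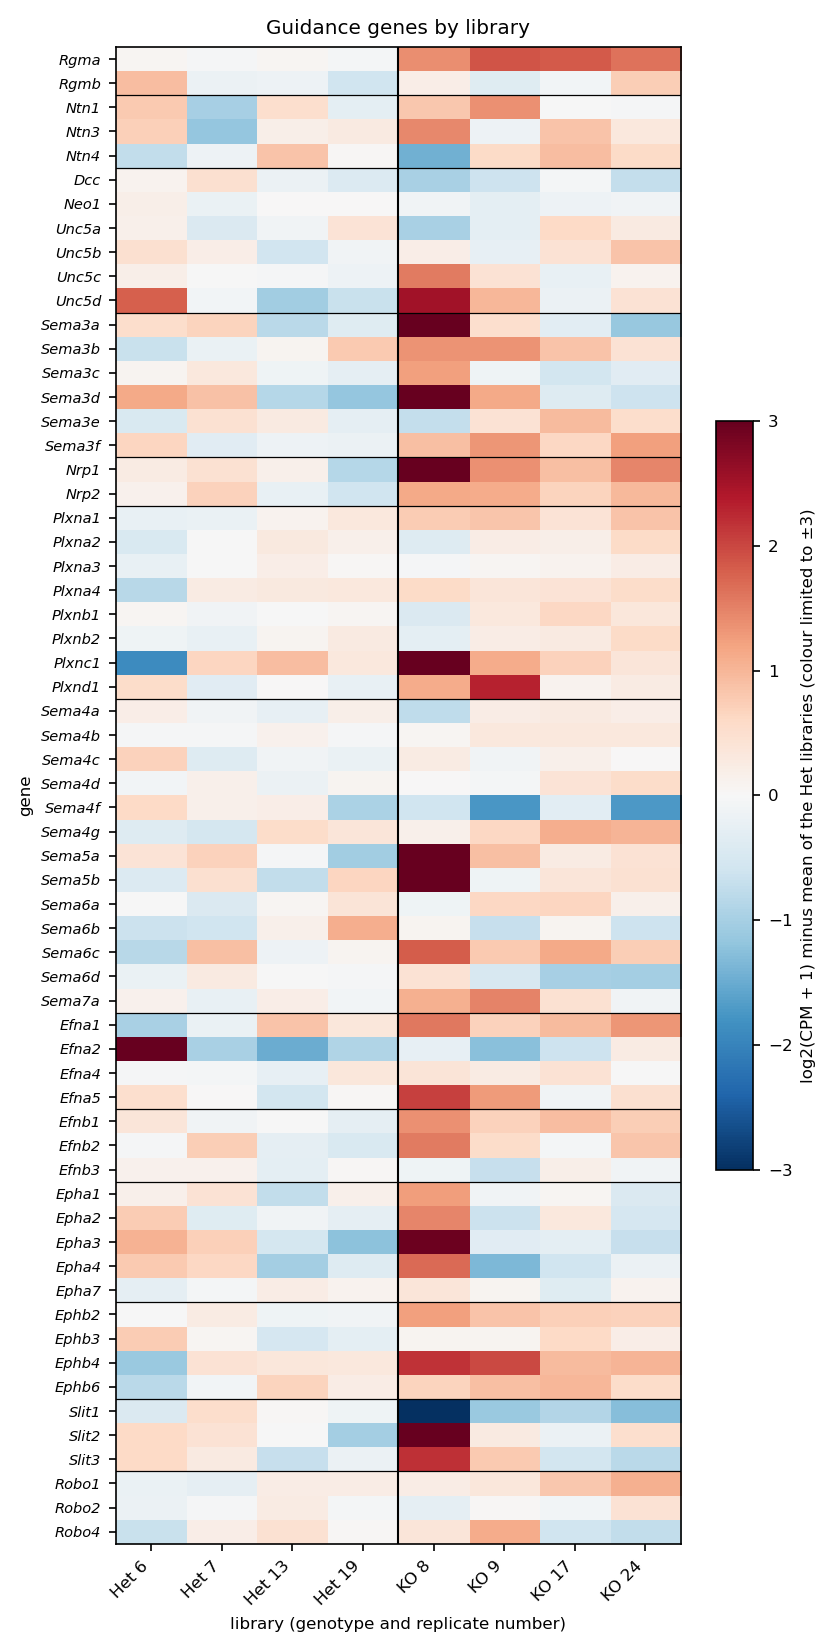
Each of the 62 guidance genes (rows, grouped by family) in the 8 libraries (columns), as log2(CPM + 1) minus the mean of the 4 Het libraries; colours stop at 3 units in either direction. The row of Rgma is red in all 4 KO columns, KO replicate 8 holds the darkest cells for Sema3a, Sema3d, Nrp1, Sema5a, Sema5b and Slit2, and Efna2 is dark in Het replicate 6.

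Semaphorins of classes 4 to 7 are mostly membrane proteins that bind plexins. Of these 13 genes, 10 had a positive log2 fold change (median 0.26, or 0.30 without KO replicate 8), and none was called with all libraries. Sema6d, a transmembrane semaphorin, was called lower when KO replicate 8 was left out. It had 76.5, 106.5, 88.1 and 85.9 CPM in Het and 119, 62.8, 44.2 and 43.4 CPM in KO, so that KO replicates 9, 17 and 24 lay below all Het libraries and KO replicate 8 above them all. The log2 fold change was −0.40 (adjusted p = 0.634) with all libraries and −0.85 (adjusted p = 0.0364, SE 0.18) without KO replicate 8. It was also called lower with all 8 libraries and a mesenchyme covariate (−0.73, adjusted p = 0.0427) and by limma-voom with quality weights (−0.85, adjusted p = 0.0249). That covariate was far highest in KO replicate 8, and quality weights can count an outlying library less. These 2 fits are therefore not separate from leaving KO replicate 8 out. DESeq2 with all 8 libraries did not call Sema6d (−0.40, adjusted p = 0.655).

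Sema4g, a class 4 semaphorin, had 11.2, 9.94, 22.2 and 19.3 CPM in Het and 16.5, 23.3, 32.6 and 31.2 CPM in KO. Without KO replicate 8 its groups did not overlap, and the log2 fold change went from 0.73 (adjusted p = 0.405) to 0.88 (adjusted p = 0.185). Sema4b was narrow in both groups, at 59.4 to 66.8 CPM in Het and 64.2 to 76.7 CPM in KO (log2 fold change 0.26, adjusted p = 0.473). Sema5a, a semaphorin with thrombospondin repeats, had 74.3, 89.8, 54.1 and 26.4 CPM in Het and 591, 105.6, 66.2 and 75.5 CPM in KO. KO replicate 8 was far above the rest, and the log2 fold change was 1.78 (adjusted p = 0.337) with it and 0.42 (adjusted p = 0.609) without it. Sema5b, at 49.1 CPM in KO replicate 8 and 2.12 to 7.19 CPM elsewhere, went from 1.81 to 0.15. Sema4f had a log2 fold change of −1.31 (adjusted p = 0.428), with 2.53 to 9.34 CPM in Het and 1.04 to 4.52 CPM in KO. Per coding length in Het, Sema6d (27.7 ± 3.90 CPM per kb), Sema4b (24.9 ± 1.47), Sema6a (22.5 ± 5.10) and Sema4d (19.2 ± 1.99) were the leading semaphorins of these classes beside Sema5a (18.98 ± 8.50). Neighbours in that order differed by less than the larger SD of each pair. The other genes of these classes were Sema4a, Sema4c, Sema4d and Sema6a, with log2 fold changes of 0.03, 0.02, 0.25 and 0.34, and the 3 low ones Sema6b (−0.67), Sema6c (1.65) and Sema7a (1.34).

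**Figure D4:**
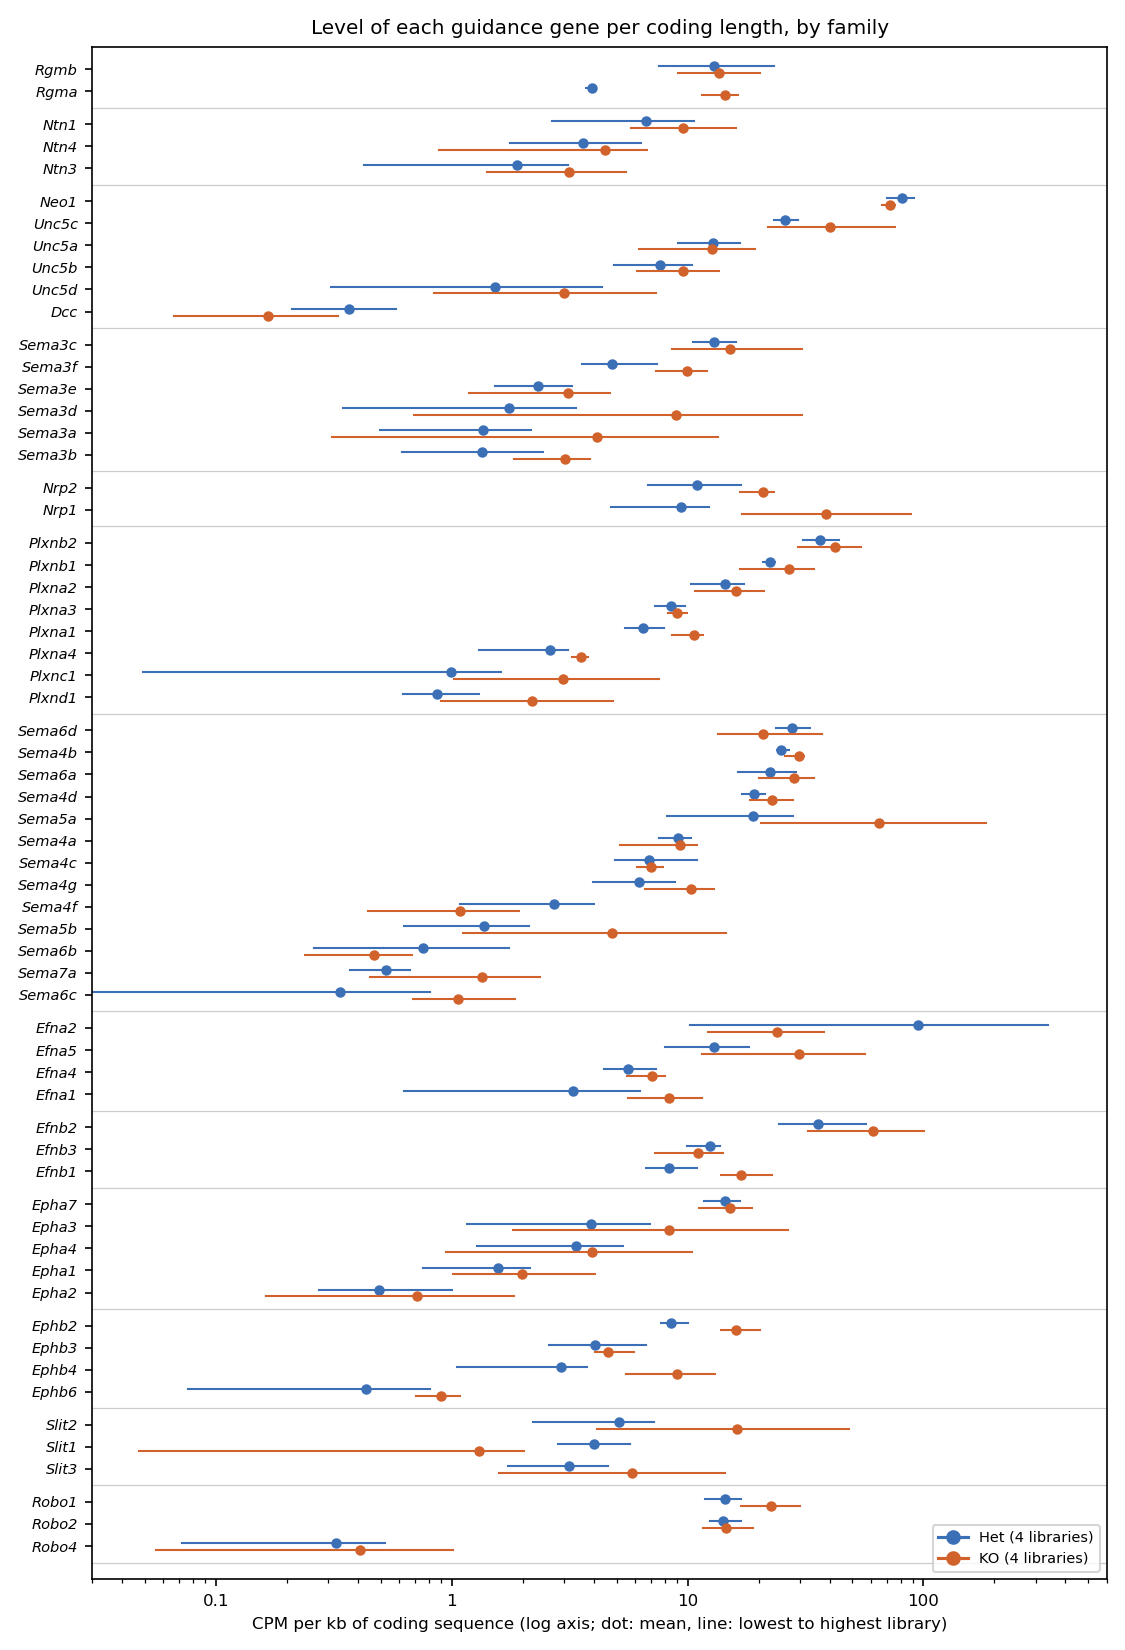
Level of each of the 62 guidance genes in CPM per kb of its longest coding sequence (log axis), by family and ordered by the Het mean; dots are means and lines run from the lowest to the highest of 4 libraries, Het in blue and KO in orange. Neo1 at 81.2 CPM per kb and Plxnb2 at 36.5 CPM per kb lead their families in Het, and the wide Het line of Efna2 comes from Het replicate 6; the Het line of Sema6c runs to the edge because Het replicate 6 had 0 counts.

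Ephrins are the membrane-bound ligands of Eph receptors, the A class tied by a lipid anchor and the B class spanning the membrane. On the B side, 1 of 3 ligands (Efnb1) and 2 of 4 receptors (Ephb2 and Ephb4) were higher in KO without overlap between groups. Over all genes tested that share was 3.52%. None of the 7 passed the edgeR threshold. Efnb1 had 11.3, 7.90, 8.47 and 6.89 CPM in Het and 23.5, 14.3, 17.2 and 14.99 CPM in KO. Its log2 fold change was 1.02 (adjusted p = 0.155, SE 0.28), 0.83 without KO replicate 8 (adjusted p = 0.194), and the DESeq2 adjusted p was 0.0327. Ephb2, a receptor of B ephrins, had 24.9, 29.8, 22.9 and 23.1 CPM in Het and 60.3, 45.9, 41.7 and 41.2 CPM in KO. The lowest KO library was above the highest Het library by more than the SD of either group, 25.2 ± 3.21 CPM against 47.3 ± 8.95 CPM (SD, n = 4 each). At a log2 fold change of 0.91 (adjusted p = 0.0524, SE 0.19) it had the second smallest p of the 62 genes. It was 0.76 (adjusted p = 0.0636) without KO replicate 8, and was called by DESeq2 (adjusted p = 0.00199), by limma-voom (0.0160) and with the mesenchyme covariate (0.0133). These fits called 227, 196 and 228 of all genes higher, against 48 in the main fit. The limma-voom quality weights and the mesenchyme covariate are not separate from leaving KO replicate 8 out. Ephb4, the receptor of Efnb2 known from veins, had 3.16, 11.2, 10.4 and 10.1 CPM in Het and 39.2, 34.6, 16.4 and 17.2 CPM in KO. KO replicates 8 and 9 were again the highest (log2 fold change 1.63, adjusted p = 0.138, SE 0.44, and 1.37 without KO replicate 8).

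Efnb2 was the B ephrin with the highest level per coding length, at 35.6 ± 14.7 CPM per kb in Het. It had 33.2, 57.5, 28.2 and 24.6 CPM in Het and 101, 50.4, 32.8 and 61.7 CPM in KO, with overlap (log2 fold change 0.78, adjusted p = 0.420, and 0.41 without KO replicate 8). Efnb3 and Ephb3 had log2 fold changes of −0.18 and 0.18. Ephb6, a receptor without kinase activity, was low, at 0.231 to 3.31 CPM.

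Single libraries stood out on the A side. Efna2 had 212 CPM in Het replicate 6 (2742 counts) and 9.57, 6.44 and 10.03 CPM in the other Het libraries, and 16.5, 7.64, 12.4 and 23.7 CPM in KO. Its log2 fold change was −1.98 (adjusted p = 0.474) with all libraries and 0.79 (adjusted p = 0.560) without Het replicate 6. Mum1, Ndufs7 and Gamt, genes near Efna2, had 37.8, 40.7 and 33.8 CPM in that library, against 15.4 to 23.7, 28.0 to 42.8 and 14.0 to 50.5 CPM in the other 7. Efna5 had 12.5, 8.71, 5.47 and 8.81 CPM in Het and 38.7, 22.2, 7.91 and 12.4 CPM in KO, with overlap (log2 fold change 1.20, adjusted p = 0.344, and 0.66 without KO replicate 8). Efna1 and Efna4 had log2 fold changes of 1.36 and 0.33.

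All 5 EphA receptors were highest in KO replicate 8. Their log2 fold changes were all positive with that library (median 0.34) and all negative without it (median −0.54), and none was called in either fit. Epha7, the EphA receptor with the highest level per coding length, was steady, with 35.3, 41.3, 50.1 and 46.7 CPM in Het and 56.0, 45.6, 33.4 and 46.0 CPM in KO (log2 fold change 0.06, adjusted p = 0.931, SE 0.20). Epha3 and Epha4 had 78.9 and 30.8 CPM in KO replicate 8. In the other KO libraries they had 5.39 to 7.46 and 2.79 to 7.63 CPM, and their log2 fold changes went from 1.10 to −0.80 and from 0.22 to −0.93. Epha1 and Epha2 had log2 fold changes of 0.34 and 0.53, which became −0.28 and −0.54.

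Slits are secreted ligands that repel Robo-bearing axons. Slit1 was the only guidance gene with all KO libraries below all Het libraries when all 8 were used. It had 12.96, 26.3, 18.2 and 16.2 CPM in Het and 0.218 CPM (3 counts), 7.72, 9.27 and 6.82 CPM in KO. The means were 18.4 ± 5.68 CPM in Het and 6.01 ± 3.99 CPM in KO (SD, n = 4 each), a log2 fold change of −1.62 (adjusted p = 0.404, SE 0.72). Without KO replicate 8 it was −1.22 (adjusted p = 0.0746, SE 0.31). The authors' deposited table gives Slit1 a log2 fold change of −1.62 and an adjusted p of 0.0150. Slit2 and Slit3 were highest in KO replicate 8. Slit2, with the highest level of the 3 per coding length, had 33.3, 29.6, 21.6 and 10.2 CPM in Het and 224, 26.2, 19.2 and 31.2 CPM in KO (log2 fold change 1.67, adjusted p = 0.408, and 0.09 without KO replicate 8). Slit3 had 20.98, 16.6, 7.94 and 11.95 CPM in Het and 65.9, 24.2, 8.96 and 7.27 CPM in KO, so that KO replicates 8 and 9 were above all Het libraries and KO replicate 24 below them, and its log2 fold change went from 0.89 to −0.11.

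Of the Slit receptors, Robo1 and Robo2 stood at nearly the same level in Het, 14.5 ± 2.71 and 14.1 ± 1.87 CPM per kb, and did not differ beyond their SD. Robo1 had 60.4, 57.8, 81.7 and 81.9 CPM in Het and 81.6, 88.0, 122 and 146 CPM in KO. The groups touched only at KO replicate 8 and Het replicates 13 and 19, and the log2 fold change was 0.64 (adjusted p = 0.252, SE 0.21), or 0.74 (adjusted p = 0.0908) without KO replicate 8. With the mesenchyme covariate Robo1 was called higher (adjusted p = 0.0215), in a fit that called 228 of all genes higher, against 48 without the covariate. That covariate was far highest in KO replicate 8, so this fit is not separate from leaving that library out. Robo2 had 56.6 to 76.3 CPM in Het and 52.9 to 86.3 CPM in KO (log2 fold change 0.04). Robo4, a Robo of endothelial cells, was at 3.27 CPM or less in every library.

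**Figure D5:**
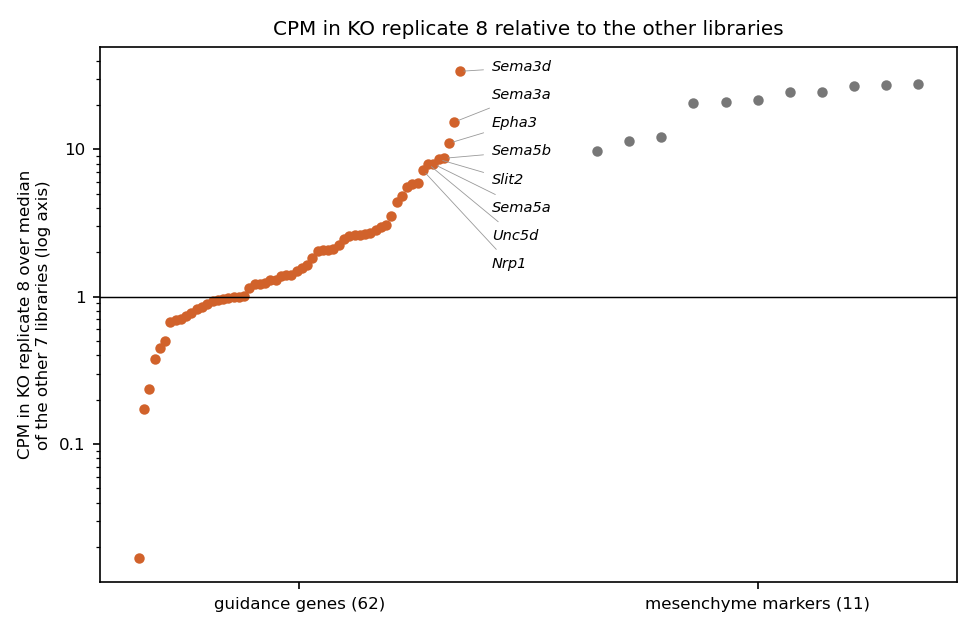
CPM in KO replicate 8 divided by the median of the other 7 libraries (log axis), for the 62 guidance genes and the 11 mesenchyme markers, each set in rising order. The mesenchyme markers lie at 9.78 to 27.8, the guidance genes from 0.0168 (Slit1) to 33.8 (Sema3d), and the 8 guidance genes above 7 are named.

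KO replicate 8 was the highest library for 27 of the 62 guidance genes and the lowest for 9, beside 3168 and 2953 of all 14116 genes tested. In 15 genes it held more than 3 times the median of the other 7: Sema3d (33.8), Sema3a (15.3), Epha3 (11.01), Sema5b (8.69), Slit2 (8.55), Sema5a (7.95), Unc5d (7.95), Nrp1 (7.20), Epha2 (5.89), Plxnc1 (5.79), Slit3 (5.52), Epha4 (4.82), Efna5 (4.40), Ephb4 (3.51) and Efnb2 (3.05). Those 7 include all 4 Het libraries, so where every KO library lies above Het that median is a Het value. The ratio then also holds the difference between the groups. For Rgma it was 2.82, though KO replicate 8 was the lowest KO library. Ephb4 had 39.2 CPM in KO replicate 8 and 34.6 CPM in KO replicate 9. The mesenchyme markers had a median ratio of 21.5. The summed mesenchyme markers of KO replicates 9, 17 and 24 lay within the Het range.

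Other genes of the guidance pathways were taken from 2 lists. Of 47 co-receptors and other guidance ligands, 46 had a row (Draxin did not) and 39 were tested. None was called with all libraries by edgeR, beside 0.34% of all genes higher and 0.68% lower. At an unadjusted p under 0.05, 8 were higher, beside 6.35% of all genes, and 2 lower, beside 5.8%, and the median log2 fold change was 0.41 (0.20 without KO replicate 8). Ntng1, a membrane-anchored netrin relative, had the smallest p. It had 0.463, 3.40, 1.41 and 1.11 CPM in Het and 4.86, 17.8, 7.01 and 11.4 CPM in KO, with no overlap. Its log2 fold change was 2.66 (adjusted p = 0.104, SE 0.65), and 2.87 (adjusted p = 0.0308) without KO replicate 8, where it was called. Of 56 genes of intracellular guidance signalling, 55 were tested and 1 was called, Pak3, lower in KO, beside 0.68% of all genes, a share that 1 of 55 does not set apart. Pak3, a kinase that acts on the cytoskeleton downstream of Rac and Cdc42, had 537, 561, 510 and 513 CPM in Het and 193, 302, 271 and 334 CPM in KO. All KO libraries were far below all Het libraries (log2 fold change −0.95, adjusted p = 0.0320, SE 0.17), also without KO replicate 8 (−0.82, adjusted p = 0.00781). The median of that list was 0.13 (0.10 without KO replicate 8).

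Symbols overlapping another gene in the annotation may share its reads, because the counting is not stated to use strand. This touches Rgma (with A730056A06Rik and LOC115486533), Unc5a (with Hk3), Ntn3 (with Tbc1d24), Sema3b (with Lsmem2) and Epha1 (with Zyx), among others.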

How the data were processed

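RNA from 8 libraries of sorted E17 endocrine cells was amplified as cDNA (NuGen Ovation V2) and sequenced as single-end reads, per the labels' protocols. Each library's deposited file holds raw counts, whole reads for every gene symbol. The submitters' processing notes name bcl2fastq 1.8.4, TopHat2 2.1.0, Cufflinks 2.0.2, DESeq and the mouse build mm9. Which tool counted, on which annotation, and how it treated strand and reads matching several genes is not given in the sources used here. A table of the authors' own comparison holds, per the file headers, a signal per group (mean normalized counts), their ratio, its log2, and unadjusted and adjusted p-values.

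Groups came from the labels. Replicate numbers are library numbers that no group shares, so nothing was paired, and 0 columns of per-sample values were left unmatched. In R 4.3.3, edgeR 4.0.16 (filterByExpr, minimum count 10 and total 15; TMM factors) kept 14116 genes. KO was compared with Het by the two-sided quasi-likelihood F test, adjusted by Benjamini-Hochberg over all of them, with a call at an adjusted p under 0.05. The SE is the size of the log2 fold change divided by the square root of F. CPM use the TMM-scaled library sizes. Levels per kb use the longest coding sequence in GENCODE M21 (GRCm38). That length leaves out untranslated regions, and whether reads there were counted is not given. If they were, genes with a short coding sequence can rank too high. The method was tested on simulated counts with 200 genes changed 3-fold, the same spread setting for every gene and no outlying library. That run does not show how the method handles an outlying library.

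Values of every library were given for genes called, for genes at an unadjusted p under 0.05, and for the gene of each family with the highest level per coding length; Plxna4 and Sema6d were added after their values were seen, as were the ranges of other genes. Alternatives were median-ratio scaling, total counts, DESeq2 1.42.0, limma-voom (limma 3.58.1) with quality weights, 2 other filters on low counts, covariates for mesenchyme, endothelial and Y-linked genes, and each library left out. Non-overlap counts and counts at an unadjusted p without KO replicate 8 were added after seeing the data. The genes and lists were chosen with earlier results of these data known. Intervals are not given; SDs and SEs cover the spread between libraries, and amplified reads are not independent molecules.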

Additional observations from a re-analysis of the deposited data

Results flagged for a closer look

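In 18 of the 124 groups of 4 libraries examined (62 genes, 2 genotypes), the highest or lowest library lay far from the other 3, by Dixon's 95% criterion. For independent, normally distributed values the criterion flags about 1 group in 20. That rate does not apply directly here, because CPM were not log-transformed and all genes share the same libraries. The share of flagged groups over all genes was not worked out, so no excess is read from this count. In 11 of the 18 the library was KO replicate 8, which was the high one in 9.

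KO replicate 8 was the high library for Sema3a (31.2 CPM), Sema3c (68.7), Sema3d (71.4), Sema5a (591), Sema5b (49.1), Nrp1 (245), Plxnc1 (35.8), Epha3 (78.9) and Slit2 (224). It was the low one for Sema4a (11.7 CPM) and Sema4b (64.2). Het replicate 6 was high for Efna2 (212 CPM), Epha2 (2.93), Sema3f (17.5) and Unc5d (12.5), and low for Ephb4 (3.16) and Plxna4 (7.41). Het replicate 13 was high for Sema4b (66.8 CPM).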

How the results depend on the processing

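Over all genes tested, the counts of calls (48 higher, 96 lower) moved by over 1.5 times with DESeq2 (227 and 293), limma-voom (196 and 304), the mesenchyme covariate (228 and 359), the endothelial covariate (0 and 4) and the Y-linked covariate (6 and 22). With each library left out they ran from 3 to 97 higher (lowest without Het replicate 13, highest without KO replicate 8) and from 26 to 188 lower (likewise). Scaling and filters kept them within 1.5 times. Of the guidance genes, 8 were called higher by DESeq2, 5 by limma-voom (Rgma, Ephb2, Nrp1, Nrp2 and Sema3f), 6 with the mesenchyme covariate (Rgma, Ephb2, Nrp1, Plxna1, Robo1 and Sema5a), 0 with the endothelial one, and 0 to 1 with a library left out; lower ones were 1 by limma-voom, 1 with the mesenchyme covariate and 0 to 1 with a library left out (1 without KO replicate 8). Without KO replicate 8 the guidance genes without overlap were 12 higher and 2 lower, and those lower at an unadjusted p under 0.05 were 3. The cause of these moves was not tested.

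Rgma kept a log2 fold change of 1.8 to 1.98 in every alternative run. None of the genes whose direction turned was called. Their log2 fold changes were, by limma-voom, Efna2 0.41, Epha2 −0.085, Epha4 −0.12, Epha7 −0.16, Robo4 −1.29, Sema3a −0.093, Sema3c −0.25 and Unc5a 0.24; with the endothelial covariate, Efna2 0.25, Efnb3 0.17, Epha1 −0.078, Epha3 −0.32, Epha4 −0.55, Epha7 −0.34, Robo4 −2.05, Sema3a −0.47, Sema3c −0.52, Sema3d −0.55, Slit3 −0.54, Unc5a 0.54 and Unc5c −0.12. With the mesenchyme covariate they were Epha1 −0.11, Epha2 −0.24, Epha3 −0.29, Epha4 −0.57, Sema3a −0.035, Sema3c −0.22, Sema4c −0.035 and Unc5a 0.13. With the Y-linked covariate they were Epha4 −0.36, Epha7 −0.075, Robo4 −0.53, Sema3c −0.19, Sema6b 0.027 and Unc5a 0.34. Sema4c was at −0.000746 without a filter and Unc5a at 0.052 by total counts. With each library left out the range was −2.36 to 0.79 for Efna2, −0.28 to 0.54 for Epha1, −0.54 to 1.13 for Epha2, −0.80 to 1.52 for Epha3, −0.93 to 0.55 for Epha4, −0.068 to 0.17 for Epha7, −0.010 to 0.30 for Plxna2, −0.20 to 0.51 for Rgmb, −0.13 to 0.14 for Robo2, −0.61 to 0.68 for Robo4, −0.42 to 1.97 for Sema3a, −0.38 to 0.40 for Sema3c, −0.11 to 2.83 for Sema3d, −0.074 to 0.22 for Sema4a, −0.11 to 0.34 for Sema4c, −0.96 to 0.14 for Sema6b, −0.11 to 1.18 for Slit3 and −0.30 to 0.21 for Unc5a.

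DESeq2 gave no adjusted p for Sema3d, Sema5a, Sema5b, Efna2 and Slit2. No paired analysis was possible because no replicate number occurs in both groups. Depth limits the low genes, such as Dcc, Sema6b, Sema6c, Ephb6 and Robo4, whose counts per library were small.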
